A study of Mus musculus with 8 samples.

Results

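Genes of 9 solute carrier families that move amino acids, sugars and related small molecules across membranes (SLC1, SLC2, SLC3, SLC5, SLC6, SLC7, SLC36, SLC38 and SLC43) were examined in glomeruli of mice without the tetraspanin CD151. They were taken by gene symbol from the deposited table, which gave 69 of its 18120 symbols and 95 of its 25697 probes. The RNA came from glomerular isolates of 4 Cd151+/+ and 4 Cd151-/- mice, all male, of the FVB/N strain and 3 weeks old, each hybridised to its own Illumina MouseRef-8 v1.1 array, a 1-colour platform that reports how bright the beads of each probe are on average. Strain, sex and age were the same in all mice, so that by the labels the groups differ in the *Cd151* genotype alone. The comparison asks which carriers differ at an early age in a strain where loss of CD151 leads to disease of the glomerular filter.

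Carriers of these families work mainly by coupling their substrate to sodium or protons, by exchanging one substrate for another, or by letting it run down its gradient. In the kidney they are best known from the proximal tubule, where sodium-coupled carriers of the brush border (SLC5 for glucose and other sugars, SLC6 and SLC1 for amino acids) and the exchanger SLC7A9 recover what the glomerulus has filtered, and SLC2 and SLC7 carriers of the basal side pass it on to the blood. Cells of the glomerulus use facilitative SLC2 carriers for their own glucose, and most cells hold carriers for osmolytes such as taurine and betaine.

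Each level is a normalised log2 signal, the background-corrected and quantile-normalised brightness on a log2 scale, on which a difference of 1 is a fold of 2. A probe counted as detected where its detection p-value was no higher than 0.05, and limma was run on the 14967 probes that some array detected, adjusting for all of them by Benjamini-Hochberg. Arrays detected 11291 to 12359 probes each, whose median signal was 3.00-fold to 4.46-fold the background. The background put the arrays into 2 sets of 4, with Cd151+/+ mice 1 and 2 and Cd151-/- mice 3 and 4 on the lower side (59.0 to 69.5) and Cd151+/+ mice 3 and 4 and Cd151-/- mice 1 and 2 on the higher side (123 to 135). The labels name no batch. *Cd151* was detected by 3 of 3 probes in every Cd151+/+ mouse and by 0 of 3 in every Cd151-/- mouse, with the brightest at 14.37 ± 0.24 (SD, n = 4) and at least 523-fold lower in Cd151-/- mice (adjusted p = 6.51e-10, limma). The podocyte markers *Podxl*, *Ptpro* and *Wt1* were detected on all 8 arrays, and so were the tubule markers *Slc34a1*, *Umod* and *Slc12a1*, while *Cd2ap*, which podocytes also express, was detected on none. In RNA of a whole isolate, fewer cells of a type and less RNA per cell cannot be told apart.

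Of the 69 carriers, 47 had at least 1 probe detected on at least 1 array and were tested (59 probes). A probe was detected on all 8 arrays for 32 of them and on 1 to 7 arrays for 15. The other 22 were detected on no array. Among them were the glutamine carrier *Slc1a5*, the fructose carrier *Slc2a5* and its relative *Slc2a12*, *Slc3a2* (the heavy chain that brings SLC7 exchangers to the membrane), *Slc5a3*, *Slc5a5* and *Slc5a7* (for inositol, iodide and choline), *Slc6a2*, *Slc6a3*, *Slc6a5*, *Slc6a7* and *Slc6a14*, *Slc7a1*, *Slc7a3*, *Slc7a6*, *Slc7a10*, *Slc7a11*, *Slc7a12* and *Slc7a13*, and *Slc38a1* and *Slc38a5*. For these probes the arrays give no more than a signal near background, and *Slc3a2* and *Slc7a11*, for example, were not detectable in either genotype. Detection in 1 genotype alone was seen for *Slc43a3*, on 1 Cd151+/+ array, and for *Slc36a3*, on 1 Cd151-/- array, and no difference between the groups is printed for either, though both count in the totals below.

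No carrier passed Benjamini-Hochberg adjustment, and the lowest adjusted p among them was 0.918 (limma). Among all probes tested, 0.00668% were higher and 0.0267% were lower in Cd151-/- glomeruli by that rule. At an unadjusted p of 0.05, 6 of the 59 carrier probes were higher in Cd151-/- mice, or 10.2% against 1.69% of all probes, and 0 were lower, against 2.61% of all probes. The share depended on single mice: it was 1.69% against 0.978% of all probes without Cd151+/+ mouse 1, 1.69% against 1.14% without Cd151+/+ mouse 2 and 1.72% against 1.54% without Cd151-/- mouse 4. The 6 were the SLC5 carriers *Slc5a8*, *Slc5a9*, *Slc5a10* and *Slc5a11* and the SLC6 carriers *Slc6a12* and *Slc6a13*. A difference of at least 0.5 on the log2 scale was seen upward for 20 carrier probes (33.9% against 7.62% of all probes) and downward for 1 (1.69% against 6.03%). All values of Cd151-/- mice lay above all those of Cd151+/+ mice for 1 carrier probe, *Slc6a12* (1.69% against 0.855% of all probes), and below them for 0 (against 1.46%). With 1 probe per gene, 31 of 47 carriers were higher and 16 lower, with a median difference of 0.21, while 5588 of all 11240 genes tested were higher, with a median of -0.0018. The carriers cannot be taken as independent of each other, since several are known from the same cell type, that of the proximal tubule.

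**Figure D1:**
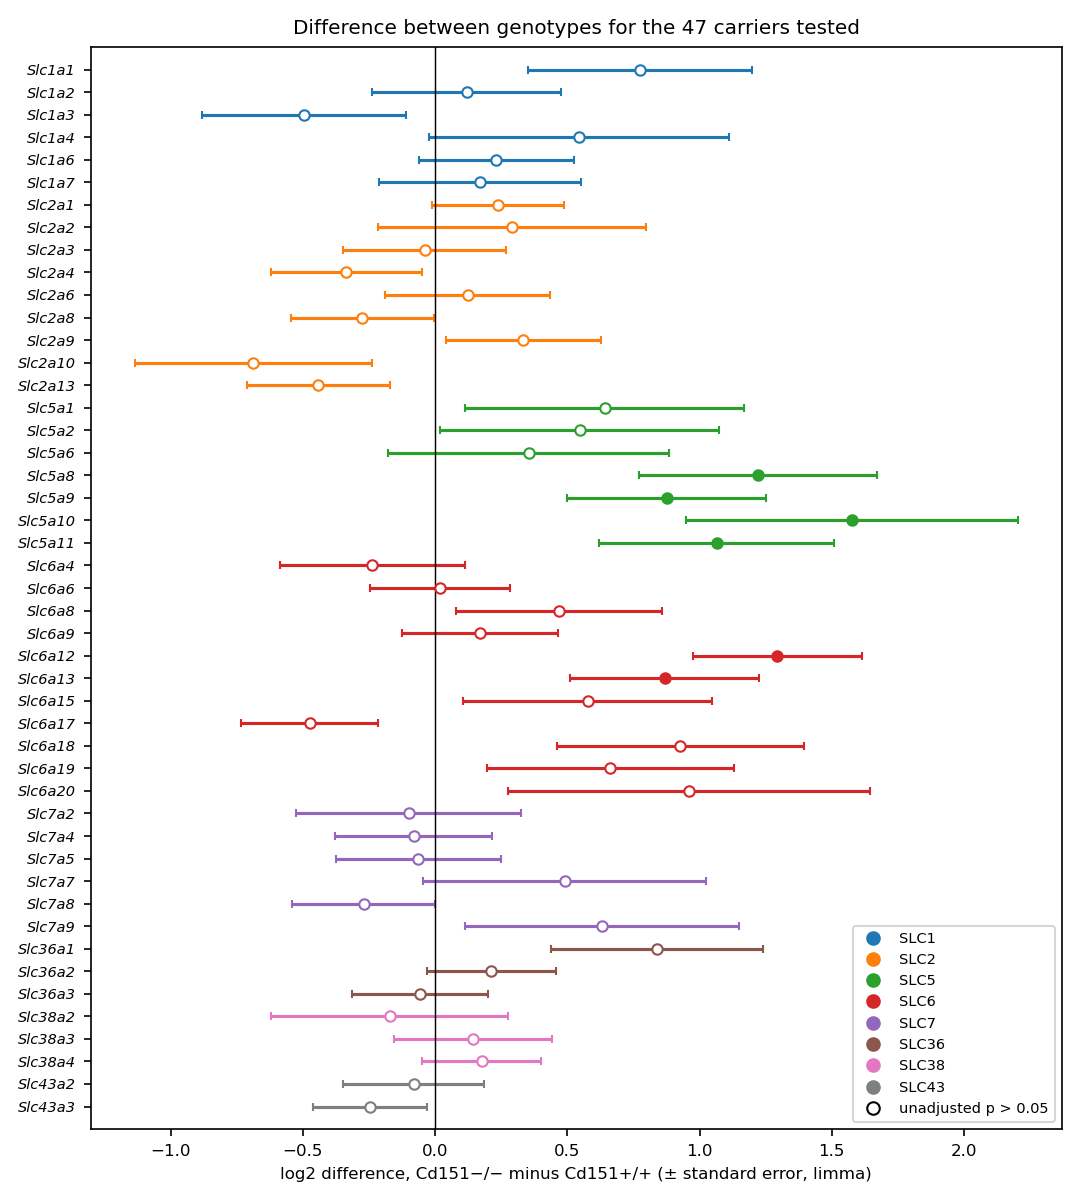
Difference in normalised log2 signal between the genotypes (Cd151-/- minus Cd151+/+) for the 47 carriers tested, 1 probe per gene, with the standard error of the limma fit as bars and families in colour. The filled points, for 4 SLC5 and 2 SLC6 carriers, are those with an unadjusted p of 0.05 or lower, and all 7 SLC5 points lie to the right of 0.

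The families differed in how their members lay. All 7 SLC5 carriers tested were higher in Cd151-/- mice, with differences from 0.35 to 1.58 and a median of 0.87, and 9 of 11 SLC6 carriers were higher, with a median of 0.58. The SLC2 family was split (4 of 9 higher, median -0.04), as was SLC7 (2 of 6, median -0.07). For SLC1, 5 of 6 were higher with a median of 0.20, but this turned to 3 of 6 and -0.02 when arrays were scaled to their 75th percentile and to 2 of 6 and -0.25 with array weights. Array weights also turned SLC2 (5 of 9, 0.06) and SLC7 (4 of 6, 0.11). In that fit Cd151+/+ arrays of lower background and Cd151-/- arrays of higher background weighed most, so genotype and array set largely coincide. SLC2 turned as well without Cd151+/+ mouse 3 (5 of 9, 0.11), and SLC7 (4 of 6 each time) on leaving out Cd151+/+ mouse 1, at 0.10, or 4, at 0.06, or Cd151-/- mouse 2, at 0.09. SLC36 (2 of 3 higher, 0.21), SLC38 (2 of 3, 0.14) and SLC43 (0 of 2) held few tested genes, and SLC38 turned to 1 of 3 and -0.02 without Cd151+/+ mouse 3 and to 1 of 2 and -0.01 with only probes detected on all 4 arrays of a group. Over all the settings tried, SLC5 medians ran from 0.49 to 1.26 and SLC6 medians from 0.26 to 0.85. The highest of each came with array weights. No test between families was made.

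The SLC5 family couples the uptake of sugars, vitamins and small acids to sodium. *Slc5a8*, which carries monocarboxylates such as lactate and nicotinate, had normalised log2 signals of 7.96, 7.85, 9.0 and 9.50 in Cd151+/+ mice 1 to 4 and of 10.002, 9.80, 8.77 and 10.63 in Cd151-/- mice 1 to 4. Cd151-/- mouse 3 lay among the Cd151+/+ mice and the other 3 above them. The difference was 1.22 ± 0.45 (SE), a 2.33-fold higher signal, with p = 0.0204 unadjusted and 0.918 adjusted (limma), and p = 0.0857 in the exact permutation test (two-sided, all 70 divisions of the mice, smallest possible value 0.0286). *Slc5a10*, which carries mannose and fructose, gave 5.74, 5.08, 7.02 and 6.72 in Cd151+/+ and 8.50, 7.90, 5.75 and 8.71 in Cd151-/- mice. Here too Cd151-/- mouse 3 was low, at the level of Cd151+/+ mouse 1, and the other 3 were above every Cd151+/+ mouse. The difference of 1.58 ± 0.63 (SE) had an unadjusted limma p of 0.0293 and an exact p of 0.114.

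*Slc5a11*, a carrier of inositol, had signals of 4.57, 4.89, 5.78 and 6.36 in Cd151+/+ mice and of 7.07, 6.65, 5.41 and 6.74 in Cd151-/- mice. It was detected on 2 arrays of the first group and 3 of the second, and 3 of the Cd151-/- mice were above all Cd151+/+ mice. The difference was 1.06 ± 0.44 (SE), with an unadjusted limma p of 0.0358 and an exact p of 0.114. *Slc5a9*, a mannose and glucose carrier, had signals of 6.05, 5.6, 6.62 and 7.21 in Cd151+/+ mice and of 7.15, 6.80, 6.98 and 8.06 in Cd151-/- mice, and Cd151+/+ mouse 4 exceeded 3 of the Cd151-/- mice. Its difference was 0.87 ± 0.38 (SE; unadjusted limma p = 0.0408, exact p = 0.143).

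The glucose carriers of the proximal tubule were in the same family but nearer to the spread. *Slc5a2*, which takes up most of the filtered glucose, had a mean of 8.90 ± 1.12 (SD, n = 4) in Cd151+/+ and 9.44 ± 0.72 in Cd151-/- mice, a difference of 0.55 with a 95% interval from -0.61 to 1.71. *Slc5a1*, which takes up the remainder, had means of 5.93 ± 1.12 and 6.57 ± 0.73, a difference of 0.64 (95% interval -0.52 to 1.80), and *Slc5a6*, a vitamin carrier, differed by 0.35. In all 3 the groups overlapped.

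The 300 bases around the first base of the transcript (250 before it and 50 from it on) were read from RefSeq for *Slc5a8*, *Slc5a10*, *Slc5a11*, *Slc6a12* and *Slc6a13*, as carriers with an unadjusted p of 0.05 or lower, and the windows of 4 of them are shown because they hold a motif searched for. RefSeq's table for GRCm38.p6 held such windows for 46 of the 69 carriers and 32 of the 47 tested. They were searched on both strands for TGGAAA, the core of the element bound by the osmotic response factor NFAT5, for the amino acid response element TGATGCAA and its looser form TGATGNAA, which includes it, and for a motif of the tubule factor HNF1. Capitals in the windows of *Slc5a8* (chr10:88885742-88886041, plus strand) and *Slc5a10* (chr11:61720750-61721049, minus strand) mark TGGAAA, whose first base lies 181 and 204 bases before the start.
Slc5a8: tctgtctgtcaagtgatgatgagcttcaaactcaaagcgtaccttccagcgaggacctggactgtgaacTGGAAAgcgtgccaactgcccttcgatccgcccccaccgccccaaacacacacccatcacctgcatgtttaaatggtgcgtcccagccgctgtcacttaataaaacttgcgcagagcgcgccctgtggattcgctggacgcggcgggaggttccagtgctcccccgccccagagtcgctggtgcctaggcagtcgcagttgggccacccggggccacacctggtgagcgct
Slc5a10: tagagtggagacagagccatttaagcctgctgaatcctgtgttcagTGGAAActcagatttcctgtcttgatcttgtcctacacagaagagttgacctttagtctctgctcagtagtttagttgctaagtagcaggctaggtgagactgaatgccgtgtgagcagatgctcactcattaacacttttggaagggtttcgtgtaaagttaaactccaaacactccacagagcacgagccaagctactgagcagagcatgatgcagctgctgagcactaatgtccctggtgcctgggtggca
TGGAAA was present in 15 of 51 windows of the carriers tested (29.4%), in 15 of 68 windows of all carriers (22.1%) and in 21.4% of all 32851 windows. The window of *Slc5a11* (chr7:123214616-123214915) held none of the motifs.

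In the SLC6 family, which couples amino acids, betaine, creatine and transmitters to sodium and chloride, *Slc6a12* had the lowest unadjusted p of all carriers. This carrier of betaine and GABA serves to gather betaine in cells under osmotic load. Its signals were 6.01, 4.79, 5.98 and 5.75 in Cd151+/+ mice 1 to 4 and 6.73, 7.36, 6.43 and 7.2 in Cd151-/- mice 1 to 4. The groups did not overlap, the lowest Cd151-/- mouse being mouse 3 and the highest Cd151+/+ mouse being mouse 1. The difference was 1.29 ± 0.32 (SE; 95% interval 0.59 to 2.00), a 2.45-fold higher signal, with p = 0.00199 unadjusted and 0.918 adjusted (limma) and an exact p of 0.0286. It was detected on 3 of 4 Cd151+/+ and on all 4 Cd151-/- arrays. It was 1.41 within the arrays of lower background and 1.18 within those of higher background, 2 mice against 2 in each and without a test, and its unadjusted limma p stayed at or below 0.0112 in each of the 19 other settings. Its size depended on the background correction, and was 0.65 without normexp and 0.88 with an offset of 50.

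*Slc6a13*, the neighbouring gene on the chromosome with no protein-coding gene in between, encodes a GABA and taurine carrier. Its signals were 10.30, 10.27, 10.38 and 11.22 in Cd151+/+ and 11.41, 10.56, 11.38 and 12.28 in Cd151-/- mice. Cd151+/+ mouse 4 stood apart from its group, above Cd151-/- mouse 2, and the other Cd151-/- mice were above all Cd151+/+ mice. The difference was 0.87 ± 0.36 (SE; unadjusted limma p = 0.0337, exact p = 0.0571), and it was 1.55 on the arrays of lower and 0.19 on those of higher background. A window of *Slc6a12* (chr6:121342324-121342623, plus strand) held TGGAAA 75 bases before the start, and a window of *Slc6a13* (chr6:121303389-121303688, plus strand) held it on the other strand, as TTTCCA, 72 bases before the start.
Slc6a12: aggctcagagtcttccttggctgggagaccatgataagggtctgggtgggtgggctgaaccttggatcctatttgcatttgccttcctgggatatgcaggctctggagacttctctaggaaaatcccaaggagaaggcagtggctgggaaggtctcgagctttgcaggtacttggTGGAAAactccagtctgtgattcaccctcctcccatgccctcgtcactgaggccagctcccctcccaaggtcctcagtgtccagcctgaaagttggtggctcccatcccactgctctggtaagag
Slc6a13: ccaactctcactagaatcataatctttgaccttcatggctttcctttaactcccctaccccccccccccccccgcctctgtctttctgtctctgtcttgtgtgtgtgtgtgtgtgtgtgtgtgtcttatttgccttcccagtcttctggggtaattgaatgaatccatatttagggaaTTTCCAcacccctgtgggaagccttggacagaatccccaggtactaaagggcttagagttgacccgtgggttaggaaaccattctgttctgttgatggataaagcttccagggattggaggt
Each gene has further windows without it, since RefSeq gives them several starts, and 5 of the 12 windows of the 5 genes held it. The amino acid element TGATGCAA was found for 2 of the 32 tested carriers with windows, *Slc1a4* and *Slc7a7* (6.25% against 1.03% of all genes). It was also found for *Slc7a11*. Its looser form was found for no further carrier (6.25% of those tested against 4.51% of all genes). The HNF1 motif, in 0.399% of all windows, was in 0 of 68 windows of carriers, too few to show a difference for so rare a motif.

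**Figure D2:**
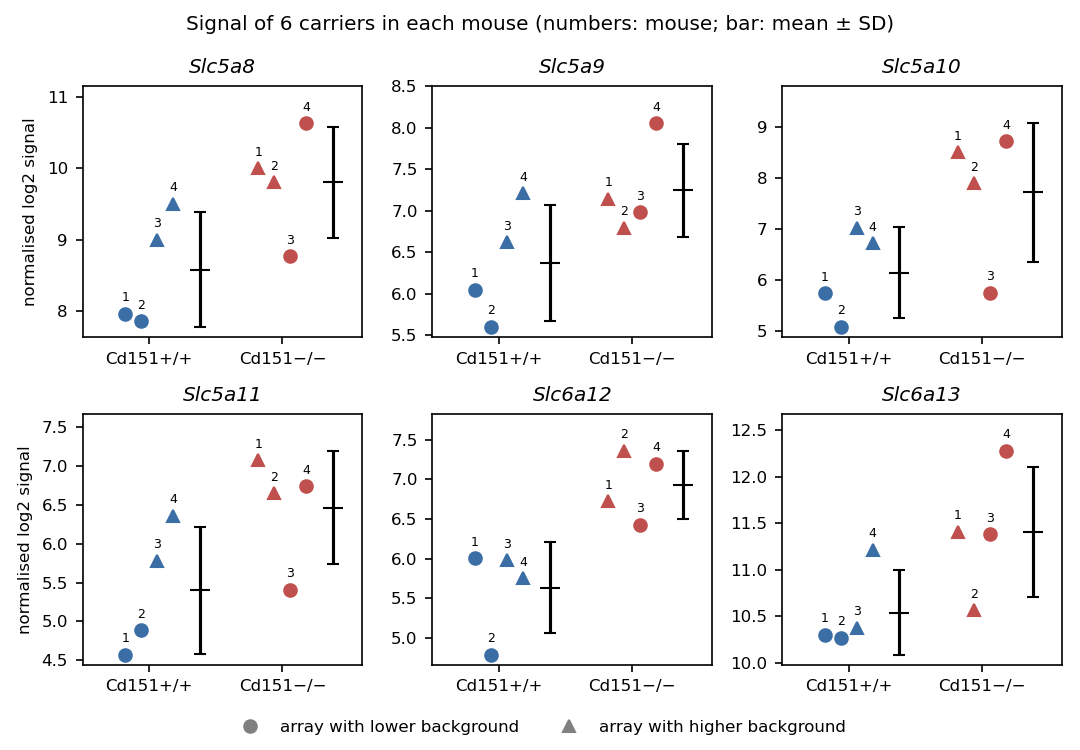
Normalised log2 signal of the 6 carriers with an unadjusted p of 0.05 or lower, 1 point per mouse with the mouse's number, and the mean ± SD of each group of 4 beside the points (circles for arrays of lower background, triangles for higher). Only the *Slc6a12* panel shows groups that do not overlap, and Cd151-/- mouse 3 is the lowest of its group for *Slc5a8*, *Slc5a10*, *Slc5a11* and *Slc6a12*.

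The brush border carriers of neutral amino acids and of imino acids in this family gave wide values. *Slc6a18*, a glycine and neutral amino acid carrier, had signals of 6.34, 7.16, 7.99 and 8.37 in Cd151+/+ and 9.01, 8.47, 7.35 and 8.74 in Cd151-/- mice, so that 3 of the latter were above all of the former. The difference of 0.93 ± 0.47 (SE) had an unadjusted limma p of 0.0728, and 0.0206 (adjusted 0.389) once the array set was a blocking term. *Slc6a20*, the proline carrier, differed by 0.96 and *Slc6a19*, the main neutral amino acid carrier of the tubule, by 0.66 ± 0.47 (SE), with overlapping groups in both. *Slc6a8*, the creatine carrier, differed by 0.47 and *Slc6a15*, a carrier of branched-chain amino acids and proline, by 0.58, the latter through Cd151-/- mouse 4 (7.59 against 4.95 to 5.78 in the other 3). The taurine carrier *Slc6a6* did not differ beyond its error, at 13.65 ± 0.47 and 13.67 ± 0.22 (SD, n = 4 each), a difference of 0.02 with a 95% interval from -0.56 to 0.60. *Slc6a17* and *Slc6a4* were lower, by -0.47 and -0.24, and *Slc6a9*, the glycine carrier, differed by 0.17.

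Among the SLC1 carriers of acidic and small neutral amino acids, *Slc1a1*, the glutamate and aspartate carrier of the tubule, had a mean of 9.23 ± 0.42 in Cd151+/+ and 10.01 ± 0.95 (SD, n = 4) in Cd151-/- mice. The difference was 0.78 (unadjusted limma p = 0.0948, exact p = 0.171), and 1.05 by its second probe. The highest mouse was Cd151-/- mouse 4, at 11.27, against 9.27 to 10.20 in the other 3. *Slc1a4*, for alanine and serine, spanned 5.70 to 7.77 in Cd151+/+ mice and 6.04 to 8.49 in Cd151-/- mice. *Slc1a3*, a glial type glutamate carrier, was lower by -0.50, with Cd151-/- mouse 4 the lowest of all mice, at 5.37. The remaining members, *Slc1a2*, *Slc1a6* and *Slc1a7*, differed by 0.12 to 0.23.

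The SLC7 carriers exchange amino acids, most of them in a pair with a heavy chain of the SLC3 family. *Slc7a9*, the light chain of the cystine and basic amino acid exchanger of the brush border, had means of 9.90 ± 0.71 and 10.53 ± 1.11 (SD, n = 4), with differences of 0.63, 0.82 and 0.96 by its 3 probes and no unadjusted limma p below 0.0738. *Slc7a7*, which releases basic amino acids on the basal side, differed by 0.49 and 0.51 by its 2 probes. For both genes Cd151-/- mouse 4 was high and so was Cd151+/+ mouse 4, and all 5 probes together gave 1.33 to 1.92 on the arrays of lower background and -0.35 to 0.01 on those of higher background. *Slc7a8*, a neutral amino acid exchanger, had signals of 11.14 to 11.73 in Cd151+/+ mice and of 11.30, 10.37, 11.29 and 11.36 in Cd151-/- mice, mouse 2 being apart, and differed by -0.27. Its second probe differed by -0.09 and had mouse 2 as the highest of the Cd151-/- mice, at 7.38. *Slc7a5*, the exchanger for large neutral amino acids, differed by -0.06 (95% interval -0.75 to 0.63), and *Slc7a2* and *Slc7a4* by -0.10 and -0.08.

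The SLC2 carriers let glucose, other hexoses and urate pass down their gradient. *Slc2a1*, the general glucose carrier, had means of 9.61 ± 0.23 and 9.85 ± 0.41 (SD, n = 4), a difference of 0.24 with a 95% interval from -0.31 to 0.79. *Slc2a2*, the basal carrier of the proximal tubule, differed by 0.29 and *Slc2a9*, the urate carrier, by 0.33. *Slc2a4*, the insulin-responsive carrier, differed by -0.34 (95% interval -0.97 to 0.29). All these groups overlapped. The most negative difference of any carrier tested was that of *Slc2a10*, at -0.69 ± 0.45 (SE), with signals of 7.82, 7.89, 6.38 and 6.61 in Cd151+/+ and 5.64, 6.38, 7.52 and 6.41 in Cd151-/- mice. Its unadjusted limma p was 0.154 (exact p = 0.200), and it was 0.0284 (adjusted 0.415) once the array set was a blocking term. The gene's other probe gave a difference of 0.10. *Slc2a13*, a proton-coupled inositol carrier, and *Slc2a8* differed by -0.44 and -0.28, and *Slc2a3* and *Slc2a6* by -0.04 and 0.12.

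Of the proton-coupled SLC36 carriers, *Slc36a1*, which exports amino acids from lysosomes, had signals of 6.42, 6.39, 6.61 and 6.31 in Cd151+/+ and 7.09, 6.48, 6.86 and 8.66 in Cd151-/- mice. Cd151-/- mouse 4 was far above the rest, mouse 2 lay among the Cd151+/+ mice, and mice 1 and 3 were a little above them. The difference of 0.84 ± 0.40 (SE) had an unadjusted limma p of 0.0610 and an exact p of 0.0571. Its neighbour in the same cluster, *Slc36a2*, differed by 0.21. Among the sodium-coupled glutamine carriers, *Slc38a2* was at 10.24, 10.18, 10.79 and 10.10 in Cd151+/+ mice and at 10.78, 11.16, 9.91 and 8.77 in Cd151-/- mice. Its Cd151-/- values thus spanned those of the controls, with an SD of 1.06 against 0.31, and the difference was -0.17. *Slc38a3* and *Slc38a4* differed by 0.14 and 0.18, and *Slc43a2*, of the SLC43 carriers of large neutral amino acids, by -0.08.

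**Figure D3:**
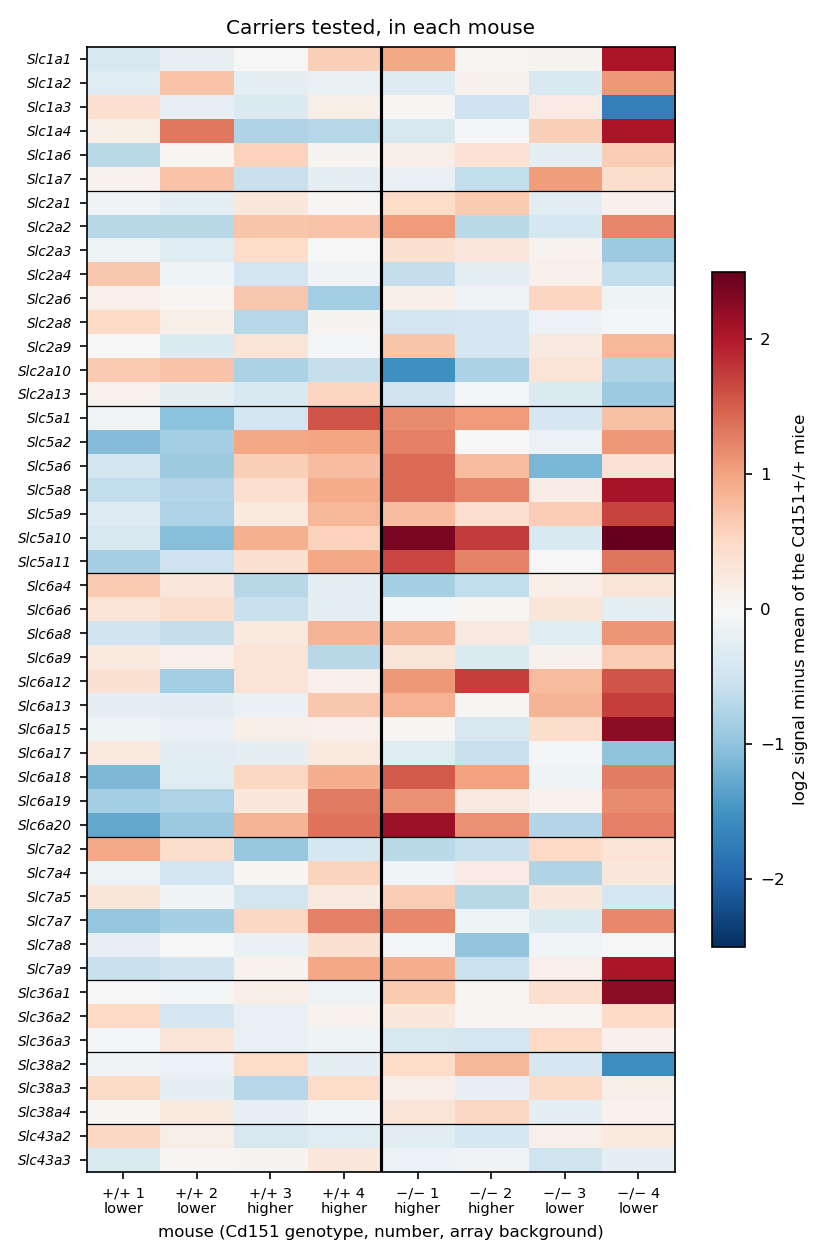
Normalised log2 signal of each of the 47 carriers tested in each mouse, less the mean of the 4 Cd151+/+ mice, with rows by family and columns by mouse (lower or higher array background under each). The SLC5 rows are mostly above 0 in Cd151-/- mice 1, 2 and 4 and in Cd151+/+ mice 3 and 4, and Cd151-/- mouse 4 holds the highest value for 15 of the 47 carriers.

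Carriers varied more between mice of one genotype than genes did in general, with a median pooled SD of 0.590 on the log2 scale over the 47 carriers and of 0.379 over all genes tested. The mouse with the highest signal was Cd151-/- mouse 4 for 15 carriers, Cd151+/+ mouse 1 for 9, Cd151+/+ mouse 4 for 7 and Cd151-/- mouse 1 for 6. For SLC5, the median over the 7 genes, each less its Cd151+/+ mean, was -0.46, -0.85, 0.42 and 0.92 in Cd151+/+ mice 1 to 4 and 1.41, 1.07, -0.15 and 1.34 in Cd151-/- mice 1 to 4. SLC6 medians in the same order were -0.10, -0.27, 0.24, 0.24, 0.86, 0.05, 0.10 and 1.19. Cd151-/- mice 1 and 4 were thus high in both families, and Cd151-/- mouse 3 lay within the Cd151+/+ range.

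The same genes also differed between the sets of arrays. Between Cd151+/+ mice alone, SLC5 signals were higher on the arrays of higher background for 7 of 7 genes, by a median of 1.34, while the median over all genes was -0.05. Among Cd151-/- mice the same was true of 6 of 7 SLC5 genes, by a median of 0.79. Within the arrays of lower background, SLC5 carriers differed between the genotypes by a median of 1.44 and SLC6 carriers by 1.29, and within those of higher background by 0.58 and 0.15. In both sets the sign was positive for 6 of 7 SLC5, 5 of 11 SLC6 and 20 of all 47 carriers (against 29% of all genes), and negative for 9 of 47 (against 31.9% of all genes). With the array set as a blocking term in limma, 8 carrier probes were higher (13.6% against 5.21% of all probes) and 1 was lower (1.69% against 6.08%) at an unadjusted p of 0.05. The 8 were the 6 above with *Slc6a18* and *Slc6a20*, and the lowest adjusted p was 0.326, for *Slc6a12*. The part of the set in these results beyond this block was not tested.

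**Figure D4:**
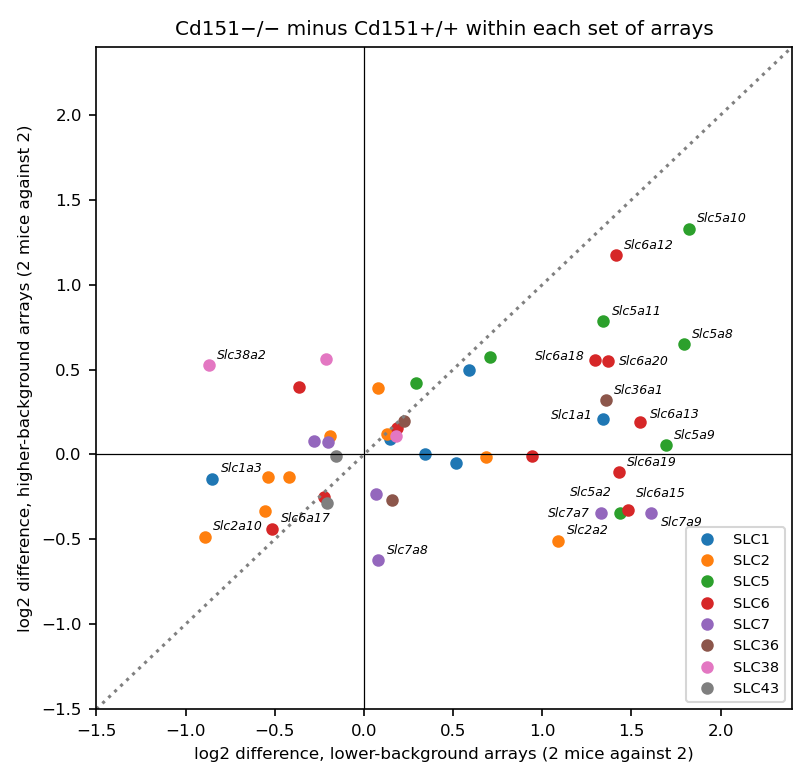
Difference between the genotypes in normalised log2 signal (Cd151-/- minus Cd151+/+) within the 4 arrays of lower background (horizontal axis) and within the 4 of higher background (vertical axis), 2 mice against 2 each, for the 47 carriers tested, coloured by family. *Slc5a10* and *Slc6a12* lie near the dotted line of equal differences, at 1.82 and 1.33 and at 1.41 and 1.18, whereas *Slc5a9*, *Slc6a13*, *Slc6a19*, *Slc7a9* and *Slc7a7* are high on the lower-background arrays and near or below 0.2 on the others.

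Markers of the proximal tubule, where most of these brush border carriers are made, went the same way. Of 15 listed markers, 12 were on the array and all 12 were tested, 11 of them higher in Cd151-/- mice and 1 lower, with a median difference of 0.67, and 0 passed adjustment. *Kap* and *Slc22a8* were higher at an unadjusted limma p of 0.0337 and 9.05e-04, by 1.38 and 1.45. *Slc22a8* was detected on 1 Cd151+/+ and 4 Cd151-/- arrays, so most of its Cd151+/+ signals lay near background. The summed signal of the list, as log2, was 14.52, 14.78, 15.47 and 16.02 in Cd151+/+ mice 1 to 4 and 16.02, 15.30, 15.27 and 16.31 in Cd151-/- mice 1 to 4, overlapping between the groups. *Slc34a1* and *G6pc* were detected on all 8 arrays, but *Lrp2* and *Pck1* on 0 Cd151+/+ and 2 Cd151-/- arrays. Both of the latter were tested only through Cd151-/- arrays, so the filter favours their upward sign. They are nonetheless included in the counts and medians given for this list. Within the arrays of lower background 12 of 12 were higher, by a median of 1.39, and within those of higher background 6 of 12. The part of proximal tubule RNA in the carriers' differences was not tested.

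Markers of the loop, distal tubule and collecting duct did not go that way, with 4 of 9 higher and a median of -0.13 (summed log2 signal 14.76 to 15.64 in Cd151+/+ and 14.28 to 15.04 in Cd151-/- mice). Of the podocyte markers 0 of 4 were higher, with a median of -0.25 (summed 15.79 to 15.90 and 15.51 to 15.92), and of the glomerular endothelial markers 1 of 6, with a median of -0.32 (15.002 to 15.26 and 14.33 to 15.28). *Kdr*, counted among the lower endothelial markers, was tested only through Cd151+/+ arrays, being detected on 2 of them and on 0 Cd151-/- arrays. Mesangial and smooth muscle markers were split (2 of 5 higher, median -0.05), as were leukocyte markers (3 of 6, -0.06). Of the former, *Acta2* differed by 0.71 and *Pdgfrb* by -0.74, at an unadjusted limma p of 0.0185 and 0.0399. Of the erythroid markers 0 of 3 were higher (median -0.69), with *Alas2* at -2.57 and *Hba-a1* at -0.69. The third, *Hbb-b1*, differed by only -0.02 and was detected on 0 Cd151+/+ and 1 Cd151-/- arrays.

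**Figure D5:**
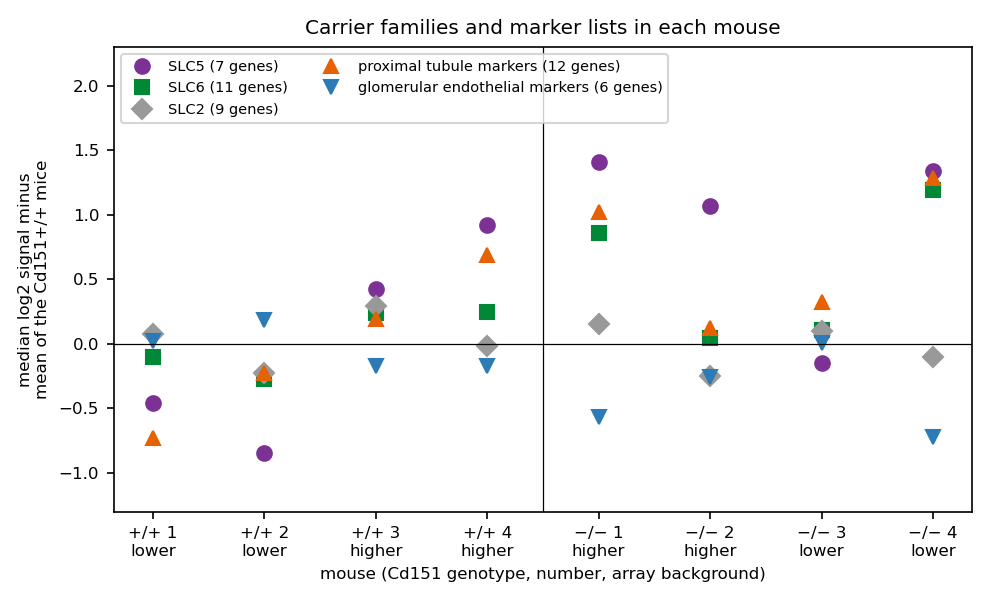
Median over the genes of a family or marker list of the normalised log2 signal less the mean of the 4 Cd151+/+ mice, for each mouse (horizontal axis, with the background of its array). The SLC5 points and the proximal tubule points are high in Cd151+/+ mouse 4 and in Cd151-/- mice 1 and 4 and low in Cd151+/+ mice 1 and 2, and they part in Cd151-/- mouse 2, at 1.07 and 0.12, while SLC2 stays between -0.25 and 0.29.

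The genes that carry, anchor and regulate these transporters were split, with 5 of 10 higher and a median of 0.00096. *Tmem27*, the partner that SLC6A19 needs at the brush border, differed by 0.98 ± 0.63 (SE) and *Pdzk1*, a scaffold of the brush border, by 0.67 ± 0.42. *Txnip*, whose product restrains glucose uptake and answers to glucose, was lower by -0.78 ± 0.27 (SE), with an unadjusted limma p of 0.0153 and an adjusted p of 0.918. The difference was -0.82 on the arrays of lower and -0.74 on those of higher background. *Tbc1d4*, which acts on the trafficking of SLC2A4, was detected on no array.

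Genes of the osmotic response, of which *Slc6a12* is a known target, were higher for 5 of 6, with a median of 0.14. Of the 6 genes, 3 were higher in both sets of arrays, and *Ptges* and *S100a4* differed by only 0.0084 and 0.11. *Akr1b3*, the aldose reductase that makes sorbitol, had means of 5.46 ± 0.41 and 6.35 ± 0.57 (SD, n = 4), a difference of 0.89 with an unadjusted limma p of 0.0172, and was detected on 2 Cd151+/+ and 4 Cd151-/- arrays. *Nfat5* itself differed by 0.17, *Aqp1* by 0.56 and the heat shock gene *Hspa1a* by -0.25. The taurine carrier *Slc6a6*, which osmotic load also raises, differed by 0.02 as given above, and the inositol carrier *Slc5a3* was not detected.

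Of the response to lack of amino acids, 4 of 13 genes were higher, with a median of -0.06. *Ddit4* and *Cebpb* were lower, by -0.97 and -0.67, at an unadjusted limma p of 0.0356 and 0.0454, *Asns* and *Ddit3* differed by -0.02 and -0.06, and *Psat1*, an enzyme of serine synthesis, by 0.96. Genes of nutrient sensing by mTORC1 gave 4 of 7 higher (median 0.05) and none of them passed the unadjusted threshold. Genes of glucose use gave 7 of 15 higher (median -0.18). Those of gluconeogenesis and fructose use in the proximal tubule, *G6pc*, *Fbp1* and *Khk*, differed by 0.40 to 0.70, while the phosphofructokinase genes *Pfkl* and *Pfkm* were lower, by -0.47 and -0.50, at an unadjusted limma p of 0.0340 and 0.0395. In these lists 0 genes passed adjustment over all probes.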

How the data were processed

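The authors hybridised biotin-labelled cRNA of 8 mice to MouseRef-8 v1.1 arrays and deposited the signal intensity of each probe, neither background-subtracted nor normalised (GenomeStudio, per the labels), beside a detection p-value in steps of 1 over 798 negative controls. The authors' own analysis used cubic spline normalised values, with gene lists filtered by p-value and signal intensity, SAM and pathway analyses. Their list of genes higher in Cd151-/- glomeruli holds *Slc6a12*. SAM, a relabelling method, was not run here. Groups were taken from the sample titles.

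In R 4.3.3, neqc of limma 3.58.1 (offset 16, quantile normalisation) corrected the background inferred from those p-values, and lmFit and eBayes fitted Cd151-/- minus Cd151+/+ for the 14967 probes that 1 or more arrays detected (p-value at most 0.05). The offset compresses differences of dim probes. Exact permutation tests over 70 relabellings were two-sided. For *Cd151* in Cd151-/- mice the fold is a bound against the lowest detected signal of each array. A gene with several probes is given by the one brightest on average. The fit was tested on simulated data. The number of arrays and the signal over background limit the precision.

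The members and lists were chosen with earlier results of these data known. Carriers with an unadjusted p of 0.05 or lower, with groups that did not overlap and differed by 0.5 or more, or with a difference of 1 or more are given mouse by mouse, and also named are the 10 brightest, a list of renal carriers and any member in an account by family. *Slc6a18*, *Slc2a10*, *Slc36a1* and *Slc38a2* are also given by mouse, chosen after their values were seen. Symbols matched RefSeq (GRCm38.p6) for 68 of 69 carriers and, for *Slc6a20*, as a synonym. In the main fit mice were not paired by number, since the labels name no pairing. Alternatives were other background corrections, normalisations, offsets and filters, blocks for the mouse number and the set of arrays, variance models, array weights and each mouse left out. Slides are not named in the columns, and the study's experiments other than the arrays were not analysed here. Single values of some genes are not reported here.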

Additional observations from a re-analysis of the deposited data

Results flagged for a closer look

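In 3 of 94 groups of 4 mice, 1 mouse lay apart from the other 3 by Dixon's criterion, which chance meets in about 1 in 20 groups. *Slc1a2*, a glutamate carrier, was at 5.90 in Cd151+/+ mouse 2, the highest, against 4.88 to 5.03 in the other Cd151+/+ mice. By another probe of the gene mouse 2 was the lowest of them, at 4.76 against 5.18 to 5.74. *Slc6a13* was at 11.22 in Cd151+/+ mouse 4, against 10.27 to 10.38. *Slc7a8* was at 10.37 in Cd151-/- mouse 2, the lowest, against 11.29 to 11.36. Its second probe did not show this, with mouse 2 the highest of the Cd151-/- mice, at 7.38 against 7.14 to 7.35.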

How the results depend on the processing

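No carrier passed adjustment over all probes in any of the 19 alternatives. The 6 carrier probes higher at an unadjusted p of 0.05 became 3 of 95 with no detection filter (3.16% against 1.68% of all probes). They became 1 with an ordinary linear model without moderation (1.69% against 1.52%) and 20 with array weights (33.9% against 15.6%). The 0 lower became 1 with the array set as a blocking term and 5 of 59 with array weights, where 16.6% of all probes were lower. Leaving out each mouse in turn gave 1 to 12 higher and 0 to 2 lower. The 2 lower came without Cd151-/- mouse 3, where 5.17% of all probes were lower. Leaving out Cd151+/+ mouse 1 or 2 or Cd151-/- mouse 4 gave 1 higher, Cd151-/- mouse 1 gave 2 (3.39% against 0.826% of all probes), Cd151-/- mouse 3 gave 10 (17.2% against 4.25%) and Cd151+/+ mouse 4 gave 12 (20.7% against 2.93%). The median over the carriers stayed positive, from 0.11 to 0.35 (0.15 to 0.35 with a mouse left out). Scaling to the 75th percentile gave 29 carriers higher and 18 lower. Array weights turned *Slc38a2* (0.34), *Slc6a6* (-0.20) and *Slc7a5* (0.0821), and leaving out a mouse turned these and others, with ranges of -0.51 to 0.29 for *Slc38a2*, -0.17 to 0.17 for *Slc6a6*, -0.29 to 0.14 for *Slc7a5*, -0.0199 to 0.61 for *Slc2a2* and -0.10 to 0.31 for *Slc38a3*. *Slc6a12* kept an unadjusted p of 0.05 or lower in 19 of 19 alternatives, *Slc5a8* in 15, *Slc5a10* and *Slc6a13* in 12, *Slc5a9* in 10 and *Slc5a11* in 10 of the 18 that tested it, and their adjusted p ranged from 0.0885 to 1.00. Without normexp, *Slc5a9*, *Slc5a10* and *Slc5a11* differed by 0.49, 1.002 and 0.53. Without Cd151-/- mouse 4, *Slc6a13* differed by 0.58 and *Slc36a1* by 0.38. With the mouse number as a replicate block, 7 carrier probes were higher (11.9% against 1.37% of all probes) and 0 lower (against 1.44%). Same-numbered mice deviated from their group means with correlations of -0.583 to -0.00856 across probes. They lay in opposite sets of arrays, so these correlations cannot show whether the numbers pair mice. The array weights were 1.73 and 1.89 for Cd151+/+ mice 1 and 2 (lower background) and 2.79 and 1.35 for Cd151-/- mice 1 and 2 (higher background). For the other arrays they ran from 0.472 to 0.609. The weighted fit thus compares mostly lower-background Cd151+/+ with higher-background Cd151-/- arrays, and genotype and array set cannot be told apart in it. The cause of the shifts between settings was not tested. Depth of signal limits the 22 carriers detected on no array.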
